A study of Arabidopsis thaliana with 48 samples.

Results

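The ascorbate peroxidase family of Arabidopsis thaliana was followed in leaf RNA under different light. The family was taken as 8 loci chosen by gene, of 33602 loci in the deposited tables, with all transcripts of a locus and both lanes of a library summed. Its members were APX1 (AT1G07890) and APX2 (AT3G09640) of the cytosol, APX3 (AT4G35000) and APX5 (AT4G35970) of the peroxisome, APX6 (AT4G32320), SAPX (AT4G08390) of the chloroplast stroma and the mitochondria, TAPX (AT1G77490) of the thylakoid membrane and TL29 (AT4G09010), also called APX4, of the thylakoid lumen. Plants of the ecotype Columbia, with no transgene or mutation named, grew for 6 weeks in controlled rooms, the last 2 under their growth light. Rooms were at 23 °C by day and 5 °C by night with a 10 h photoperiod. For the step groups described below, growth light means the light before their move.

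The samples formed 12 groups of 2 biological replicates, each replicate sequenced on 2 lanes. In the 2 step groups, plants grown at a photon flux density of 100 µmol per square metre per second were moved to 700 and carry the labels day 0.6 and day 2.57. In the 4 growth light groups, plants had grown at 100, 250, 450 or 700 and were taken at day 0.583. In the 6 diurnal groups, plants grown at 250 were taken at days 0.083, 0.25, 0.375, 0.625, 0.75 and 0.916. Light is given below by its number alone. The labels state a step of about 20 h, which does not match day 2.57, and do not say from which moment days are counted, so the time that each step group had spent at light 700 is not known. Each replicate was a random pool of RNA from plants extracted separately, 4 to 6 plants in a group, so p-values measure the spread between pools and not between plants.

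Ascorbate peroxidases use ascorbate (vitamin C) to reduce hydrogen peroxide to water, and the oxidised ascorbate is then regenerated by reductases of the ascorbate-glutathione cycle. In leaves the peroxide comes largely from photosynthetic electron transport and from photorespiration, so the isoforms are known by the compartment they protect. TAPX and SAPX are the chloroplast enzymes, APX1 is the major cytosolic one, and APX2 is a classical gene of the excess light and heat shock response. TL29 resembles an ascorbate peroxidase in sequence, but the protein is reported to lack that activity and sits with photosystem II in the lumen.

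Total counts per replicate were 20418095 to 36331053. Of the 8 members, 7 passed the filter on low counts. The leaf label was matched by 4 photosynthetic marker genes with 14976 to 51048 scaled counts (CPM, counts per 10⁶) in sum. Of the markers of other organs, 4 root genes summed to 1.19 to 37.5 CPM, of which 1 had no count in any library, 3 flower genes to 0.966 to 2.80 CPM and 2 seed genes to 0 to 0.663 CPM. Levels below are CPM after one scaling of all libraries by the trimmed mean of M values (TMM). For comparison between genes, CPM were divided by the length of the longest RefSeq transcript in kilobases (CPM per kb). In bulk leaf RNA, fewer cells of a type and less RNA per cell cannot be told apart.

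Promoters of 4 members are shown. APX1 and SAPX were chosen because they moved together after the step, and TL29 because it moved the other way against growth light 100. Against growth light 700 TL29 was higher, like them. APX2 was chosen because it was almost silent, while its promoter holds a match to the same heat shock motif as that of APX1. Whether any such match acts in these genes was not tested. Each sequence is the 250 bases before the gene's annotated start, read 5′ to 3′ on the gene's strand, from the RefSeq assembly TAIR10.1. Capitals mark matches to GAANNTTC (a heat shock element), CACGTG (G-box) or GATAAG (I-box), searched on both strands. None of these 4 windows holds part of another annotated gene. The TAPX window shares 95 bases with AT1G77480 and is not shown.
APX1 promoter, chr1:2437031-2437280, plus strand: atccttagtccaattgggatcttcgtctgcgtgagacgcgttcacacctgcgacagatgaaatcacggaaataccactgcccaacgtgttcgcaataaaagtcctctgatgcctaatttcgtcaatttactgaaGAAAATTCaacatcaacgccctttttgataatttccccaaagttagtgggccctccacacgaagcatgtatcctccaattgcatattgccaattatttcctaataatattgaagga
SAPX promoter, chr4:5314621-5314870, plus strand: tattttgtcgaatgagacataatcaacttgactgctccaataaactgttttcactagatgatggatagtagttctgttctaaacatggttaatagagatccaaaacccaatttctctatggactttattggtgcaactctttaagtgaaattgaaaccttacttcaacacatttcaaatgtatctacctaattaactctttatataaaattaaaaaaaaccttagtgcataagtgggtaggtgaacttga
TL29 promoter, chr4:5779573-5779822, minus strand: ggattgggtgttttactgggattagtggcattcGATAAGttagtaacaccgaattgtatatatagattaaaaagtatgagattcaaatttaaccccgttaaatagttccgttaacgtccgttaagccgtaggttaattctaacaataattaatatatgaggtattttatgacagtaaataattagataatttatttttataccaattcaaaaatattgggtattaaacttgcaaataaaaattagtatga
APX2 promoter, chr3:2955906-2956155, plus strand: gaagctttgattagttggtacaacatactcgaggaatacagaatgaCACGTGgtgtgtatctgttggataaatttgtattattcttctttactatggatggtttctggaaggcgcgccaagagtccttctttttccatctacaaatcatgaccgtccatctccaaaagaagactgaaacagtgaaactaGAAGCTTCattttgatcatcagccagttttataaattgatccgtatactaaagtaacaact
The heat shock element occurred in 9.55% of 27443 promoters of this length, the G-box in 6.49% and the I-box in 12.3%. In the family, GAANNTTC was found in APX1, APX2 and APX5, CACGTG in APX2 and APX3, and GATAAG in TL29. SAPX, TAPX and APX6 held none of these letters in the window. Apart from genes that overlap a member, no other locus had a transcript alignment of 100 or more bases at 85% or more identity to a member. Identity was taken over whole alignments, so more similar stretches within an alignment were not looked for. SAPX and TAPX were 80.5% identical over 814 bases, and APX1 and APX2 72.8% over 746 bases. APX1 lies at chr1:2437281-2439665, SAPX at chr4:5314871-5317963 and TAPX at chr1:29117500-29121093, all on the plus strand, and TL29 at chr4:5777397-5779572 on the minus strand. TL29 shares 85 bases with AT4G09000 and 194 bases with AT4G05690 on the opposite strand, and APX5 shares 76 bases with AT4G35980. Whether counting used strand is not given in the sources used here, so the reads of these overlaps cannot be told apart.

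The family spanned a wide range of levels, and the cytosolic isoform APX1 dominated. Averaged over the groups, APX1 stood at 738 CPM per kb, APX3 at 176, TL29 at 138, SAPX at 84.9, TAPX at 37.5, APX6 at 21.7, APX5 at 2.60 and APX2 at 0.0470. APX2 had 40 counts over all 24 libraries, with 0 counts in 11 of them and at most 3 in 20. Its highest count was 8, in replicate 1 of diurnal day 0.083, and neither replicate of step day 0.6 held any count. A count of 0 allows up to 3 counts, which is 0.0770 to 0.142 CPM in these libraries, counting error only and with counts taken as independent. If mates of a read pair were counted separately, this limit is too low. APX2 therefore entered no test, and a difference between groups was not detectable at this depth.

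Transcripts of the chloroplast enzymes made up a smaller share of the family's transcript pool in plants grown at light 700 than in those grown at light 100, and the cytosolic share was larger. Of the CPM per kb summed over the 7 members other than TL29, APX1 and APX2 took 73.6% and 74.3% in step day 0.6 and 65.2% and 67.2% in step day 2.57. In the growth light groups, their share was 54.4% and 56.9% at light 100, 63.8% and 64.8% at 250, 65.7% and 69.4% at 450, and 66.9% and 65.8% at 700. SAPX and TAPX together took 11.6% and 10.6% in step day 0.6 and 15.9% and 13.9% in step day 2.57. At growth light 100 they took 19.0% and 17.5%, at 250 12% and 11.7%, at 450 9.83% and 7.65%, and at 700 9.35% and 9.68%. The step groups had the largest sums, 1712 and 2077 CPM per kb at day 0.6, against 656 and 707 at growth light 100 and 884 and 831 at growth light 700. These shares are descriptions with no test of their own.

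**Figure D1:**
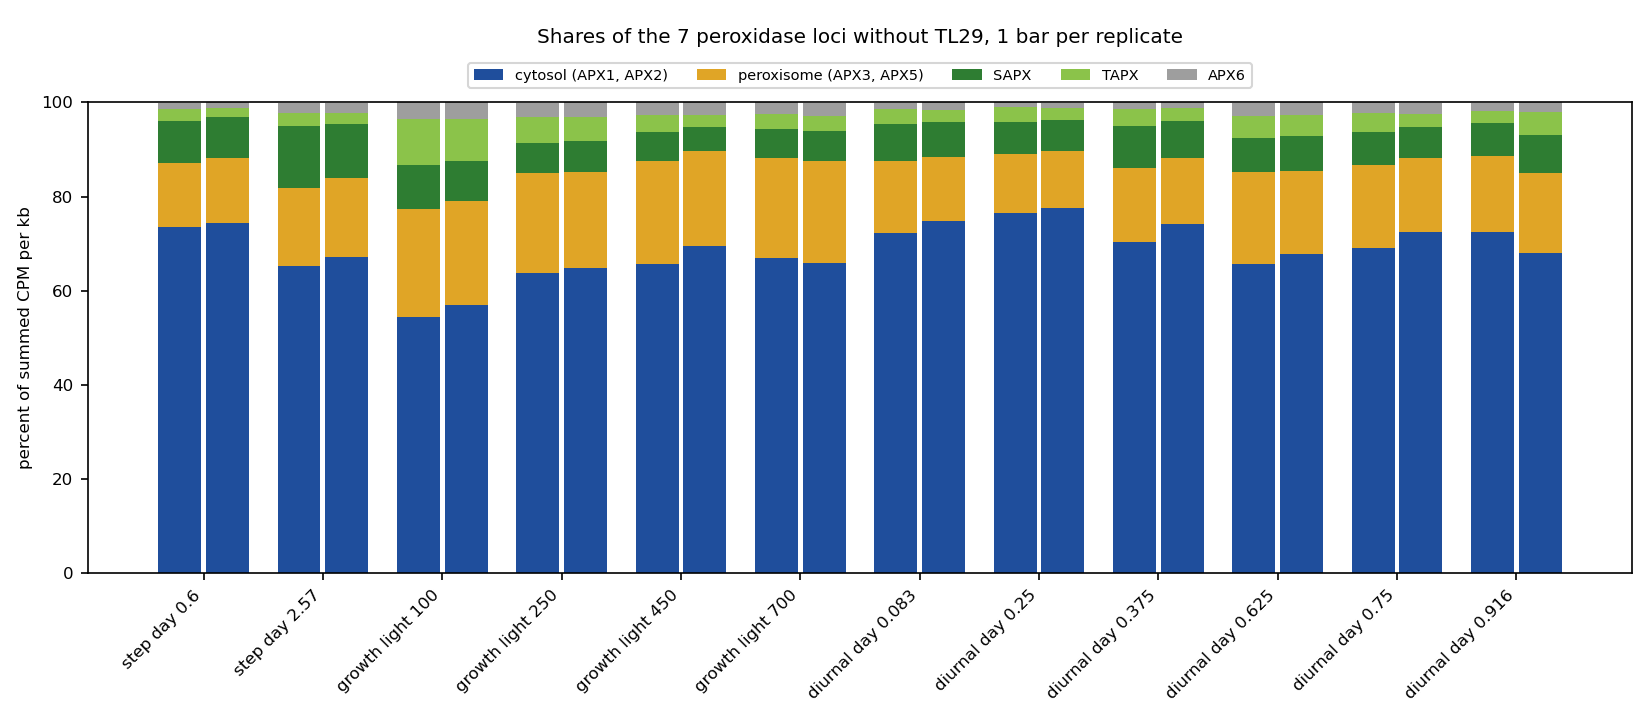
Stacked bars give the percent of summed CPM per kb held by cytosolic, peroxisomal and chloroplast loci and APX6 (y axis), 1 bar per replicate in each of the 12 groups (x axis); TL29 is left out. The TAPX band is widest at growth light 100, where it holds 9.67% and 8.83%.

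In plants grown at higher light, the cytosolic and peroxisomal isoforms APX1 and APX3 rose and the thylakoid members TAPX and TL29 fell. At light 700 against 100, 2 of the 7 tested members were higher and 2 lower, where 40.0% of the 20669 loci tested passed (19.7% higher and 20.3% lower). Against this background the count of members by itself shows nothing particular to the family. At 450 against 100, 2 members were higher and 3 lower, where 43.7% of loci passed (21.4% higher and 22.3% lower), and at 250 against 100, 1 was higher and 2 lower, where 28.7% passed (14.2% higher and 14.4% lower). Across all 4 light levels, the slope on log2 of light passed upwards for APX1 and APX3 and downwards for TAPX and TL29, where 37.8% of loci passed (18.2% higher and 19.6% lower). The APX1 slope missed the threshold without replicate 1 of light 100 (edgeR adjusted p = 0.0523), and the APX3 slope without either replicate of light 100 (edgeR adjusted p = 0.12 and 0.0869). The median log2 change of the 7 members at light 700 was -0.17, and that of all loci was 0.00.

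APX1, the housekeeping cytosolic enzyme of leaves, had 494 and 557 CPM at growth light 100, 739 and 742 at 250, 766 and 859 at 450, and 819 and 757 at 700. Light 100 lay apart from every higher level, 250 lay below both replicates of each brighter group, and 450 and 700 overlapped. The change at 700 against 100 was 0.58 ± 0.09 on the log2 scale (SE, 1.49-fold, edgeR quasi-likelihood test, adjusted p = 0.00042). APX3, which is anchored in the peroxisome membrane, had 196 and 203 CPM at light 100, 230 and 221 at 250, 240 and 236 at 450, and 245 and 236 at 700. Its rise at 700 against 100 was small, 0.26 ± 0.07 on the log2 scale (1.20-fold, edgeR adjusted p = 0.0114). Its call was lost without replicate 1 of light 100 (edgeR adjusted p = 0.078) or without replicate 1 of light 700 (edgeR adjusted p = 0.0892).

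TAPX, the hydrogen peroxide scavenger bound to the thylakoid membrane, had 159 and 157 CPM at growth light 100, 115 and 106 at 250, 78.4 and 53.4 at 450, and 69.1 and 66.2 at 700. The groups did not overlap between 100, 250 and the brighter levels, and 450 and 700 overlapped. It fell by 1.24 ± 0.14 on the log2 scale at 700 against 100 (SE, to 0.425 of the level, edgeR adjusted p = 2.31e-05), and by 0.52 ± 0.14 at 250 against 100 (edgeR adjusted p = 0.0126). The call at 250 was lost without either replicate of light 100 (edgeR adjusted p = 0.0778 and 0.054) or without replicate 2 of light 250 (edgeR adjusted p = 0.1).

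TL29 fell likewise. It had 404 and 407 CPM at growth light 100, 232 and 220 at 250, 140 and 88.8 at 450, and 150 and 135 at 700. Each of the brighter groups lay below light 100, with 450 and 700 overlapping. The change at 700 against 100 was -1.52 ± 0.16 on the log2 scale (to 0.348 of the level, edgeR adjusted p = 1.63e-05), and at 450 against 100 it was -1.83 ± 0.16 (edgeR adjusted p = 4.12e-06).

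SAPX, the stromal isoform made from a gene similar to TAPX, varied little with growth light. It had 121 and 121 CPM at light 100, 108 and 107 at 250, 102 and 93.1 at 450, and 109 and 107 at 700. The change at 450 against 100 passed (-0.32 ± 0.07 on the log2 scale, edgeR adjusted p = 0.00323), and that at 700 missed the threshold (-0.17, 95% interval -0.33 to -0.02, edgeR adjusted p = 0.0747). Under total-count scaling the change at 450 was -0.09 (edgeR adjusted p = 0.321) and that at 700 was 0.03 (edgeR adjusted p = 0.785), so its direction at 700 turned. APX6 ranged from 27.6 to 31.6 CPM in the growth light libraries and APX5 from 2.56 to 4.74 CPM, and neither passed at any level. At light 700 against 100 the 95% interval for APX6 was -0.25 to 0.08 and that for APX5 was -0.86 to 0.24 on the log2 scale.

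The scale bears on these values because the TMM factors differed with light: 0.939 and 0.919 at light 100, 0.984 and 0.990 at 250, 1.067 and 1.108 at 450, and 1.049 and 1.073 at 700. With TMM, 49.2% of the loci called at 700 against 100 were higher, and with scaling by total counts 73.2%, with the median of all loci at 0.19. At 450 these shares were 49.0% and 74.4% with the median at 0.24, at 250 they were 49.6% and 65.4%, and for the slope 48.1% and 74.8%. APX1, APX3, TAPX and TL29 kept their direction under both scalings at 700 against 100.

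**Figure D2:**
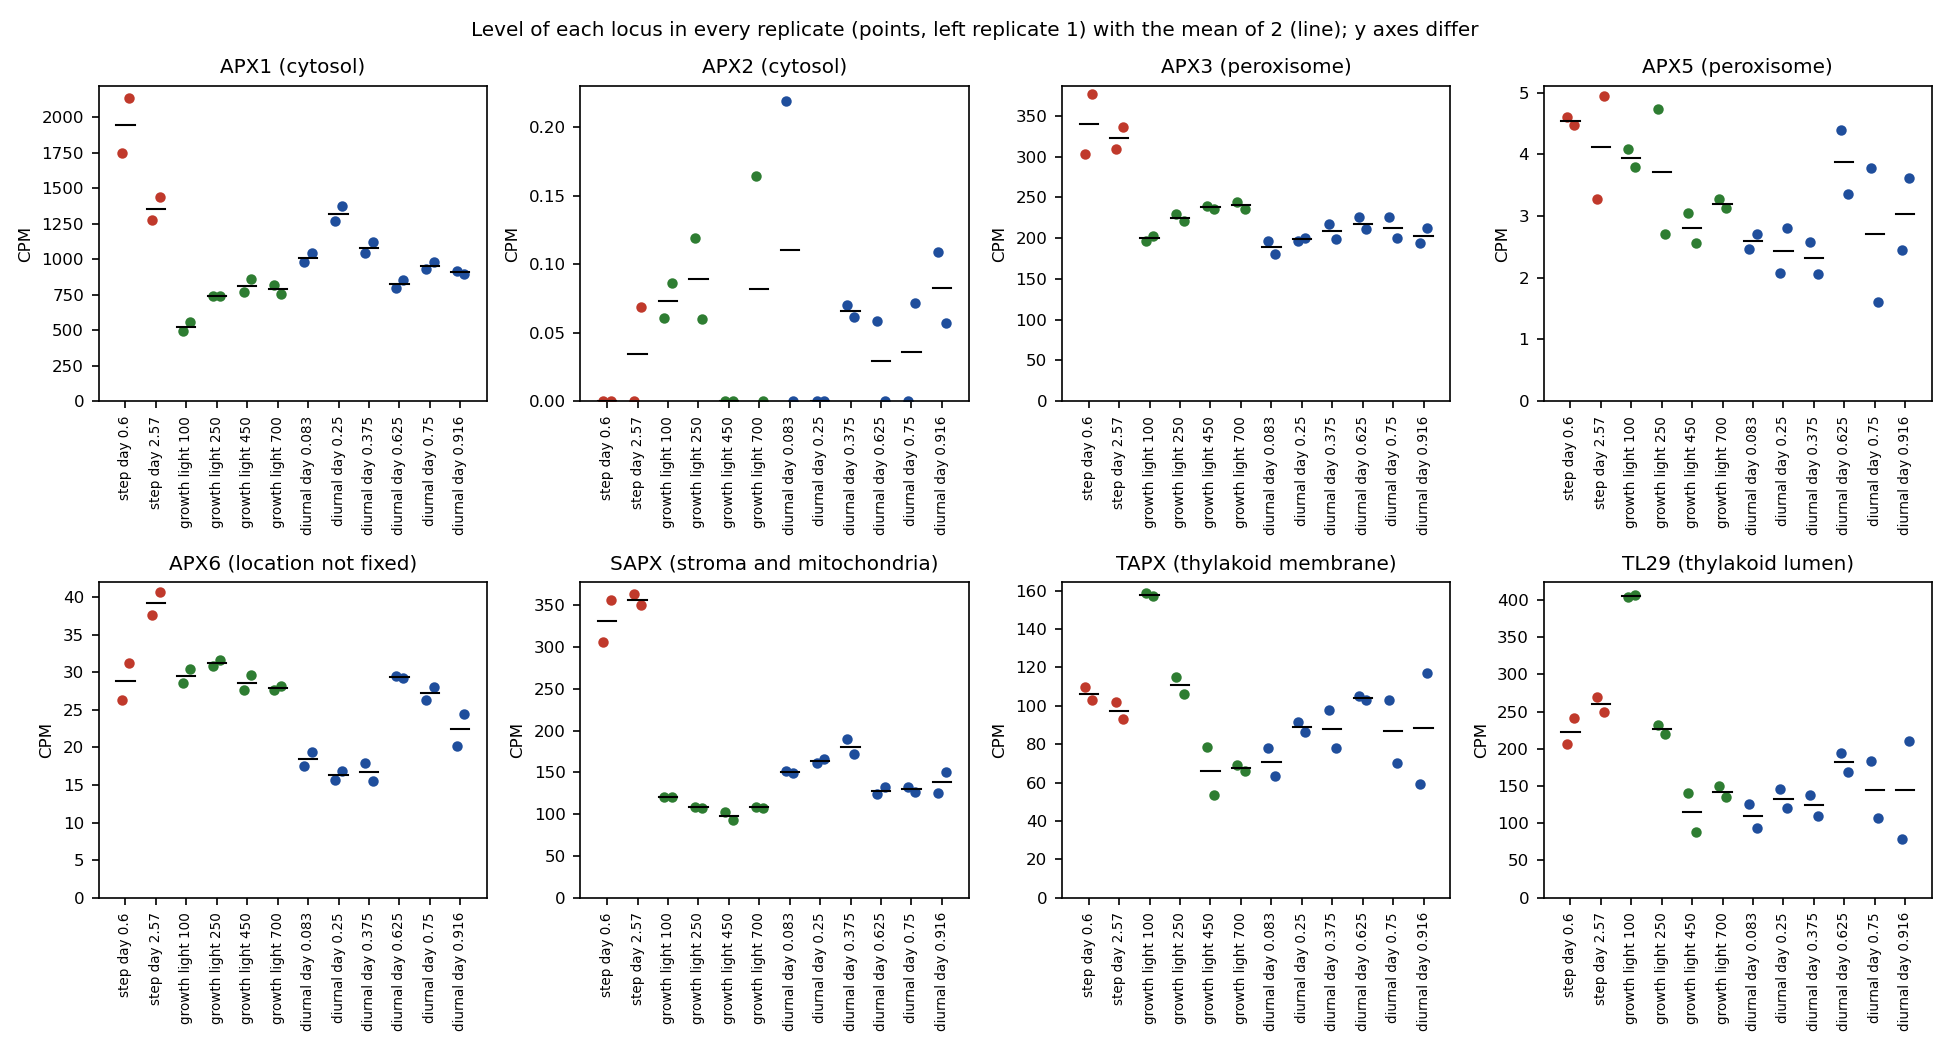
CPM of each of the 8 loci (y axes, which differ between panels) in both replicates (points) of the 12 groups (x axis), with their mean (line). The highest levels of APX1 and SAPX stand in the step groups (APX1 1745 and 2137 CPM at day 0.6, SAPX 364 and 351 CPM at day 2.57) and those of TAPX and TL29 at growth light 100.

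Ratios between 2 members in the same library do not depend on the scaling of libraries. They tested the difference in response between the 2 genes of a pair, not between whole compartments. The log2 ratio of TAPX to APX1 fell by 0.71 per doubling of growth light (exact permutation test over 2520 arrangements of the 8 libraries, two-sided, p = 0.00159, adjusted p = 0.00635 over the 8 ratio tests made). That of TAPX to SAPX, the pair of chloroplast enzymes, fell by 0.41 per doubling (exact permutation p = 0.00159, adjusted p = 0.00635). SAPX to APX1 fell by 0.30 (exact permutation p = 0.0127, adjusted p = 0.0258) and APX3 to APX1 fell by 0.12 (exact permutation p = 0.0230, adjusted p = 0.0368). The last of these missed the threshold when light was taken linearly (slope -0.04 per 100 units, exact permutation p = 0.0893). Without replicate 1 of light 100 it was -0.08 (exact permutation p = 0.117) and without replicate 2 -0.12 (exact permutation p = 0.0841), and the SAPX to APX1 slope likewise missed the threshold without either of these (exact permutation p = 0.0556 and 0.0508).

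Per kilobase, TAPX and SAPX stood close to equal at growth light 100, with a ratio of levels of 1.03. The ratio was 0.807 at 250, 0.522 at 450 and 0.492 at 700. In the step groups it was lower still, 0.253 at day 0.6 and 0.214 at day 2.57. The log2 ratios of counts behind these values were -1.48 and -1.79 in step day 0.6 and -1.83 and -1.92 in step day 2.57, against 0.39 and 0.38 at growth light 100 and -0.66 and -0.69 at growth light 700. With 2 libraries a group no exact permutation test of one such pair can pass the threshold, and none was made.

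**Figure D3:**
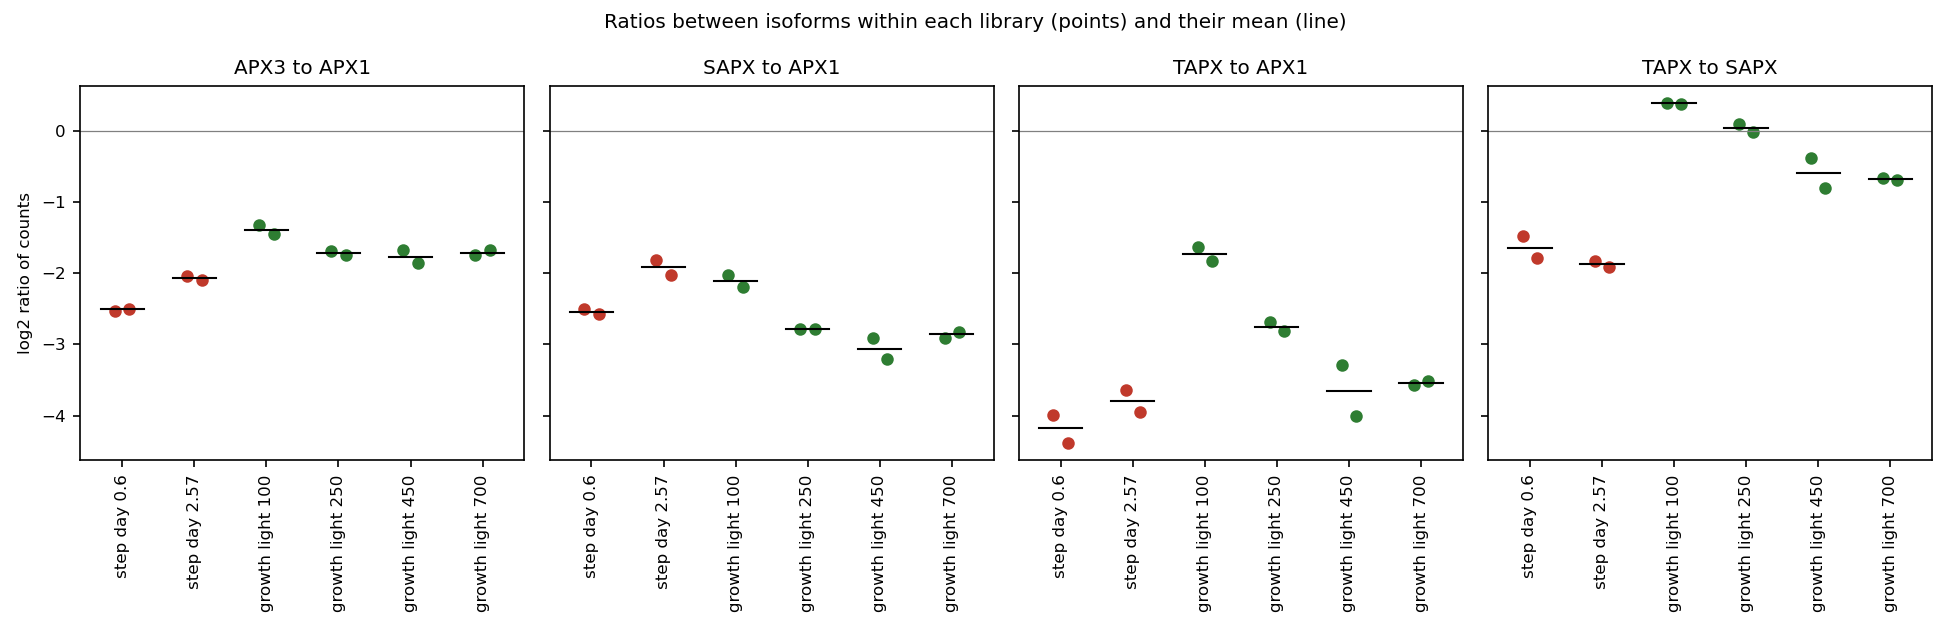
Log2 ratio of the counts of 2 loci within each library (points) and group mean (line) for 4 pairs (panels), in the 2 step groups and the 4 growth light groups (x axis). TAPX to SAPX lies at 0.39 and 0.38 at growth light 100 and at or below -1.48 in every step library.

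After the step from light 100 to 700, SAPX joined APX1 and APX3 in rising, while TAPX and TL29 were below their level at light 100. Against growth light 100, 3 members were higher and 2 lower at step day 0.6, where 49.0% of 20652 loci passed (25.0% higher and 24.0% lower), and 4 were higher and 2 lower at step day 2.57, where 41.7% passed (22.2% higher and 19.5% lower). Against plants grown at light 700, 5 members were higher and 0 lower at day 0.6, where 53.4% of loci passed (26.8% higher and 26.6% lower), and 6 were higher and 0 lower at day 2.57, where 46.3% passed (24.1% higher and 22.2% lower). The step libraries and the growth light libraries are shared between these comparisons, so the counts are not independent of each other.

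APX1 had 1745 and 2137 CPM in step day 0.6 and 1276 and 1434 in step day 2.57, against 494 and 557 at growth light 100 and 819 and 757 at growth light 700. Both step groups lay above all 8 growth light libraries. At day 0.6 the change against light 100 was 1.89 ± 0.12 on the log2 scale (3.70-fold, edgeR adjusted p = 1.54e-07), and against light 700 it was 1.32 ± 0.12 (2.50-fold, edgeR adjusted p = 2.97e-06). At day 2.57 the 2 changes were 1.36 ± 0.12 (edgeR adjusted p = 2.56e-06) and 0.79 ± 0.12 (edgeR adjusted p = 0.000203).

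SAPX had 306 and 356 CPM in step day 0.6 and 364 and 351 in step day 2.57, against 121 and 121 at growth light 100 and 109 and 107 at growth light 700. Its step levels also exceeded the highest diurnal value, 190 CPM in replicate 1 of day 0.375. The change against light 100 was 1.45 ± 0.10 at day 0.6 (2.74-fold, edgeR adjusted p = 2.99e-07) and 1.55 ± 0.10 at day 2.57 (2.93-fold, edgeR adjusted p = 2.04e-07). Against plants grown at light 700, which received the same light, it was 1.64 ± 0.10 and 1.73 ± 0.10 (3.11-fold and 3.33-fold, edgeR adjusted p = 3.66e-07 and 3.75e-07).

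APX3 had 303 and 377 CPM in step day 0.6 and 310 and 336 in step day 2.57, against 196 and 203 at growth light 100. The change at day 0.6 was 0.77 ± 0.11 on the log2 scale (1.71-fold, edgeR adjusted p = 0.00012). At day 2.57 it was 0.68 ± 0.11 (edgeR adjusted p = 0.000395). Against growth light 700 its change at day 2.57 was 0.43 ± 0.11 (edgeR adjusted p = 0.0078), which was 0.16 with total-count scaling (edgeR adjusted p = 0.176) and missed the threshold without replicate 2 of step day 2.57 (edgeR adjusted p = 0.0539) or without replicate 1 or 2 of light 700 (edgeR adjusted p = 0.0563 and 0.0927).

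TAPX had 110 and 103 CPM in step day 0.6 and 102 and 92.9 in step day 2.57, against 159 and 157 at growth light 100 and 69.1 and 66.2 at growth light 700. The step groups thus lay between the plants grown at either light, with no overlap. The change against light 100 was -0.57 ± 0.10 at day 0.6 (edgeR adjusted p = 0.000398) and -0.71 ± 0.10 at day 2.57 (edgeR adjusted p = 9.61e-05). Against light 700 TAPX was higher, by 0.68 ± 0.10 at day 0.6 (edgeR adjusted p = 0.00011) and 0.54 ± 0.10 at day 2.57 (edgeR adjusted p = 0.00078).

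TL29 took the same intermediate place, with 206 and 241 CPM in step day 0.6 and 270 and 250 in step day 2.57, against 404 and 407 at growth light 100 and 150 and 135 at growth light 700. The change against light 100 was -0.86 ± 0.11 at day 0.6 and -0.65 ± 0.11 at day 2.57 (edgeR adjusted p = 3.4e-05 and 0.000388), and against light 700 it was 0.68 ± 0.11 and 0.88 ± 0.11 (edgeR adjusted p = 0.000223 and 3.93e-05).

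APX6, whose protein is less well characterised than the others, had 26.3 and 31.2 CPM in step day 0.6 and 37.6 and 40.7 in step day 2.57, against 28.6 and 30.4 at growth light 100. Only the later step group passed against light 100, at 0.40 ± 0.11 (edgeR adjusted p = 0.00961), and the call was lost without replicate 2 of step day 2.57 or replicate 1 of light 100 (edgeR adjusted p = 0.0689 and 0.0817). Against light 700 the change at day 2.57 was 0.50 ± 0.11 (edgeR adjusted p = 0.00226), and 0.23 under total-count scaling (edgeR adjusted p = 0.0775). APX5 had 3.28 to 4.94 CPM in the step libraries and passed in none of the 4 comparisons.

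In the comparisons with growth light 700, 50.2% of the loci called at step day 0.6 and 52.1% at step day 2.57 were higher with TMM. Total-count scaling gave 32.5% and 27.7%, with the median of all loci at -0.25 and -0.27. SAPX, APX1, TAPX and TL29 kept their direction and their calls under both scalings in all 4 comparisons of step groups.

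Between the 2 step groups, 0 of 7 members passed, where 7.93% of 19998 loci did (3.29% higher and 4.65% lower). Unadjusted, 2 members had p under 0.05 in edgeR. These were APX1, lower by 0.53 ± 0.17 at day 2.57 (log2 change -0.53, edgeR adjusted p = 0.0804), and APX6, higher by 0.43 ± 0.14 (edgeR adjusted p = 0.0868). DESeq2 called 1 member, APX1, with a change of -0.54 (DESeq2 adjusted p = 0.00892). When the growth light 100 and 700 libraries shared the estimate of spread, APX1 and APX6 both passed (edgeR adjusted p = 0.0123 and 0.0187).

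**Figure D4:**
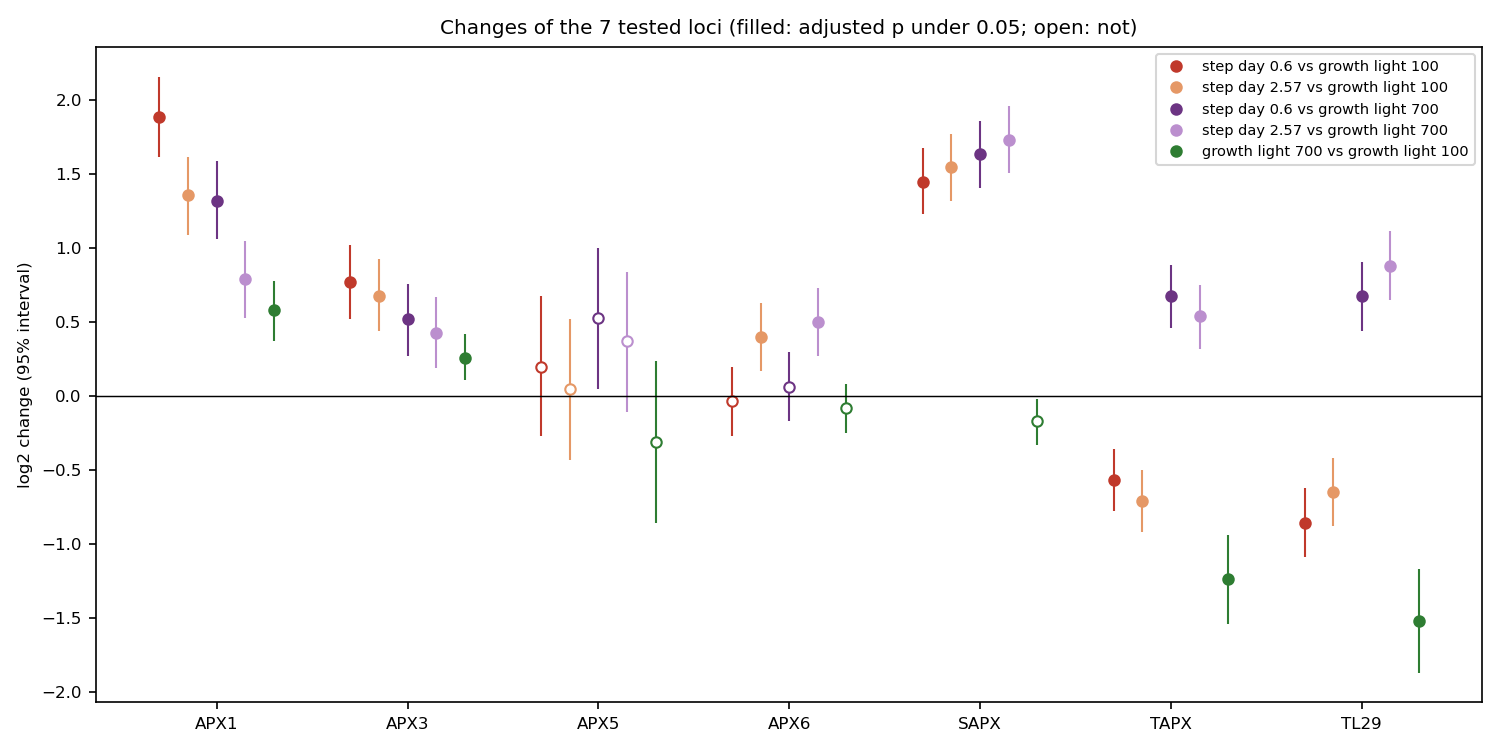
Log2 change with its 95% interval (y axis) of the 7 tested loci (x axis) in the 4 comparisons of step with growth light groups and in growth light 700 against 100 (colours); filled points passed at an adjusted p under 0.05. SAPX lies at 1.45 to 1.73 in the step comparisons and at -0.17 with growth light.

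Through the diurnal series at light 250, APX1, SAPX and APX6 changed, and the other 4 tested members did not pass. The test across the 6 time points passed for 3 of 7 members, where 60.0% of 20958 loci passed. APX1 had 982 and 1040 CPM at day 0.083, 1268 and 1372 at day 0.25, 1040 and 1122 at day 0.375, 798 and 851 at day 0.625, 933 and 978 at day 0.75, and 918 and 898 at day 0.916. Its highest and lowest groups were days 0.25 and 0.625, a range of 0.69 on the log2 scale (1.61-fold, edgeR adjusted p = 0.00247). The step day 0.6 libraries lay above this whole diurnal range, and those of step day 2.57 within and just above its top.

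SAPX, like APX1, was lowest in the group mean of day 0.625. It had 152 and 149 CPM at day 0.083, 161 and 166 at day 0.25, 190 and 172 at day 0.375, 124 and 132 at day 0.625, 132 and 127 at day 0.75, and 125 and 150 at day 0.916. Day 0.375 lay apart from day 0.25, and days 0.625, 0.75 and 0.916 overlapped (range 0.49 on the log2 scale, edgeR adjusted p = 0.00727). The difference in course between SAPX and APX1 was tested by their ratio, which did not pass over the 6 time points (spread 0.43 on the log2 scale, permutation p = 0.106, adjusted p = 0.142). Without replicate 1 or replicate 2 of day 0.916 the spread was again 0.43 and its unadjusted permutation p was 0.0357 or 0.042, so the call depended on that time point.

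APX6 was low at days 0.083 to 0.375 and highest at day 0.625, and its ratio to the other members was not tested. It had 17.5 and 19.4 CPM at day 0.083, 15.7 and 16.9 at day 0.25, 17.9 and 15.5 at day 0.375, 29.5 and 29.2 at day 0.625, 26.3 and 28.1 at day 0.75, and 20.2 and 24.5 at day 0.916. The range of its group means was 0.84 on the log2 scale (1.79-fold, edgeR adjusted p = 0.000284). Day 0.625 exceeded day 0.083 by 0.68 ± 0.12 (edgeR adjusted p = 0.001), the only member called in that pair, where 41.9% of loci passed (19.9% higher and 22.0% lower).

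APX3 stayed between 180 and 226 CPM in all 12 diurnal libraries (range of group means 0.21 on the log2 scale, edgeR adjusted p = 0.503). Its ratio to APX1 did change over the time points, with a spread of 0.81 (permutation test, 100000 resamples, p = 0.0129, adjusted p = 0.0258 over the 8 ratio tests). That call was lost without replicate 2 of day 0.25 (permutation p = 0.0518) or replicate 1 of day 0.625 (permutation p = 0.0509). APX5 had 1.61 to 4.40 CPM and, with the time points in order of level, each overlapped with the next.

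For TAPX and TL29 the replicates of day 0.916 disagreed. TAPX had 59.3 CPM in replicate 1 and 117 in replicate 2 there, and TL29 78.8 and 211. The disagreement was not particular to these members. Over all loci with enough counts, the variance between these 2 libraries was 88.36 relative to counting error. That was the highest of the 12 groups, with diurnal day 0.75 next at 31.08. At the other time points TAPX had 78.0 and 63.5 CPM at day 0.083, 91.7 and 86.1 at day 0.25, 97.6 and 78.2 at day 0.375, 105 and 103 at day 0.625, and 103 and 70.4 at day 0.75. With all libraries neither passed over the 6 time points (edgeR adjusted p = 0.574 for TAPX and 0.573 for TL29). Without replicate 1 of day 0.916 the edgeR adjusted p was 0.0541 for TAPX and 0.0412 for TL29, without replicate 2 it was 0.0326 for TAPX and 0.0268 for TL29, and without that time point it was 0.0988 for TAPX and 0.086 for TL29. Between days 0.625 and 0.083 the counts of members called were 1 with all libraries and 5 without day 0.916, while the loci called numbered 8781 and 9935. The added calls there were TAPX at 0.56 and TL29 at 0.73, both higher at day 0.625 (edgeR adjusted p = 0.0157 and 0.0188), and APX1 at -0.29 and SAPX at -0.23 (edgeR adjusted p = 0.0253 and 0.0444).

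Across the growth light groups, mean levels of TAPX and TL29 had the same order as those of the 4 leaf markers. These markers encode subunits of Rubisco and of the light-harvesting antenna. Their summed level was 35794 and 44531 CPM in step day 0.6 and 44437 and 43578 in step day 2.57. It was 49891 and 51048 CPM at growth light 100, 34865 and 33121 at 250, 24324 and 14976 at 450, and 23552 and 20736 at 700. At diurnal day 0.916 it was 15761 CPM in replicate 1 and 32784 in replicate 2, the same order as in TAPX and TL29. In the step groups TAPX did not follow the markers. It had 110 and 103 CPM at day 0.6 and 102 and 92.9 at day 2.57. At growth light 250, where the marker sum was lower, TAPX had 115 and 106 CPM. TL29 had 206 and 241 CPM at day 0.6 and 270 and 250 at day 2.57, against 232 and 220 at growth light 250. At day 0.6 TL29 thus overlapped with growth light 250 too, although both marker sums were higher in the step group. At day 2.57 it lay above growth light 250, as the markers did. The part of the marker genes, or of tissue make-up, in the course of TAPX and TL29 was not tested.

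**Figure D5:**
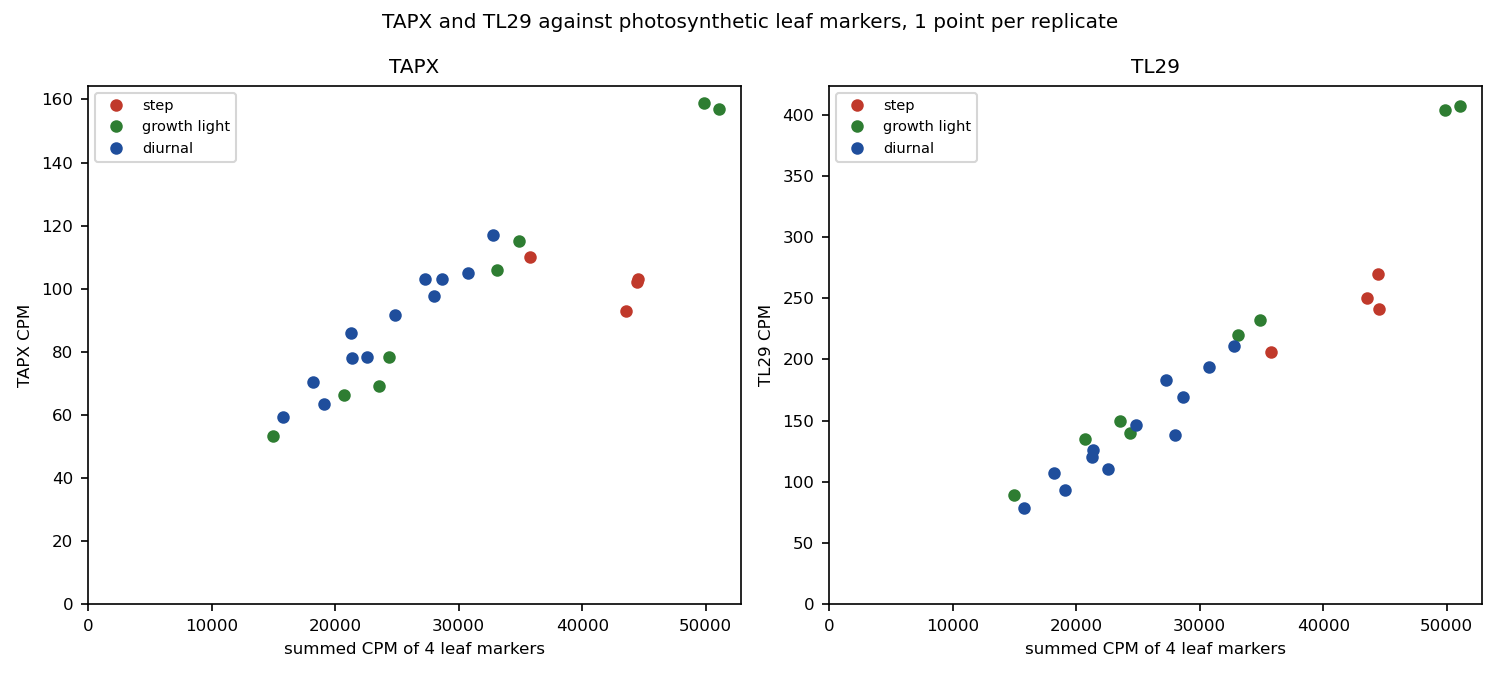
CPM of TAPX (left) and TL29 (right) on the y axes against the summed CPM of 4 photosynthetic leaf markers (x axes), 1 point per replicate, coloured by step, growth light and diurnal groups. The growth light 100 libraries stand at the top right, at 159 and 157 CPM of TAPX and 404 and 407 CPM of TL29.

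Plants at light 250 were present in both the growth light and the diurnal set, at the neighbouring days 0.583 and 0.625. APX1 had 739 and 742 CPM in the growth light set and 798 and 851 CPM in the diurnal set. SAPX had 108 and 107 CPM in the growth light set and 124 and 132 CPM in the diurnal set. TL29 had 232 and 220 CPM in the growth light set and 194 and 169 CPM in the diurnal set. TAPX had 115 and 106 CPM in the growth light set and 105 and 103 CPM in the diurnal set, and APX6 30.9 and 31.6 CPM against 29.5 and 29.2 CPM. These 5 members did not overlap between the sets. APX3 did, with 230 and 221 CPM in the growth light set and 226 and 211 CPM in the diurnal set. APX5 also overlapped, with 4.74 and 2.71 CPM against 4.40 and 3.36 CPM. The differences were not tested because the times differ.

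Over the 12 group means, members of the same compartment did not always have the most similar patterns. The correlation of log2 CPM was 0.90 between TAPX and TL29 and 0.83 between APX1 and SAPX. It was 0.71 between APX3 and SAPX and 0.20 between SAPX and TAPX (Pearson r over the 12 group means, given as descriptions). Among 13053 loci with a mean of at least 3 log2 CPM, those most like TL29 were PSBO2, a subunit of the oxygen-evolving complex, and DRT112, a plastocyanin (r = 0.981 for each). TAPX was most like HEMB1, an enzyme of tetrapyrrole synthesis, and CYP38, a lumenal immunophilin (r = 0.945 and 0.939). SAPX was most like RBP45A, an RNA-binding protein, and AT1G22410 (r = 0.985 and 0.984). For APX1 these were AT4G27560 and AT1G31550 (r = 0.969 and 0.966), for APX3 ROL5 and ALB4 (r = 0.975 and 0.973), and for APX6 3BETAHSD/D2 and AT1G30130 (r = 0.987 and 0.980).

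The genes around the family were counted by list, and over all loci 49.0% passed at step day 0.6 against growth light 100 (25.0% higher and 24.0% lower), 40.0% at growth light 700 against 100 (19.7% higher and 20.3% lower) and 60.0% across the diurnal series. No list was tested as a set, so the counts are descriptions. Of the 10 reductases of the ascorbate-glutathione cycle, which regenerate ascorbate, 8 were higher and 0 lower at step day 0.6 against growth light 100, with a median of 0.76, and 6 were higher and 1 lower at growth light 700 against 100, with a median of 0.45. The median of all loci was -0.02 and 0.00 in these comparisons. DHAR1, a dehydroascorbate reductase, had the largest rise in both, 2.94 ± 0.15 after the step and 1.40 ± 0.13 with growth light (edgeR adjusted p = 2.27e-08 and 5.87e-06). Its value is uncertain, since AT1G19540 matches it with 94.3% identity over 653 bases and AT1G19550 with 96.9% over 261 bases. The 1 reductase that fell with growth light was MDAR6, the monodehydroascorbate reductase of plastids and mitochondria, at -0.88 ± 0.12 (edgeR adjusted p = 0.000101). Over the diurnal series 5 of the 10 passed, against 60.0% of all loci, with the widest range, 2.69, in AT3G09940, another monodehydroascorbate reductase (edgeR adjusted p = 2.43e-05).

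Of 14 superoxide dismutases, catalases and chloroplast peroxiredoxins, 5 were higher and 3 lower at step day 0.6 against growth light 100 (median 0.20), near the 49.0% of all loci called there, and 3 were higher and 7 lower at growth light 700 against 100 (median -0.29). FSD1, an iron superoxide dismutase, rose most in both, by 2.26 ± 0.42 after the step and by 1.60 ± 0.25 with growth light (edgeR adjusted p = 0.000701 and 0.000286). The largest falls were CAT3, a catalase, after the step (-1.40 ± 0.12, edgeR adjusted p = 1.76e-06) and 2-Cys Prx B, a chloroplast peroxiredoxin, with growth light (-1.09 ± 0.16, edgeR adjusted p = 0.000226). The peroxiredoxin gene shares 86.8% identity over 121 bases with AT3G11630. Over the diurnal series 5 of the 14 passed, a smaller share than the 60.0% of all loci, most widely CAT2, the leaf peroxisomal catalase, with a range of 2.74 (edgeR adjusted p = 7.49e-08).

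Of 11 regulators and marker genes of excess light and heat, 5 were higher and 0 lower at step day 0.6 against growth light 100 (median 0.31), where 49.0% of all loci passed, and 6 were higher and 0 lower at growth light 700 against 100 (median 0.59). ELIP1, an early light-induced protein of the thylakoid, rose most in both, by 8.40 ± 0.29 and by 8.0 ± 0.33 on the log2 scale (edgeR adjusted p = 2.32e-09 and 3.01e-08), while APX2 had 0 counts in both libraries of step day 0.6. Across the diurnal series 10 of the 11 passed, where 60.0% of all loci did, ELIP2 most widely with 8.04 (edgeR adjusted p = 9.42e-09). The 5 extrinsic photosystem II proteins of the lumen fell in all 5 cases at step day 0.6 and at growth light 700, each against growth light 100, with medians of -0.92 and -0.96. PSBQ-2 fell most in both, at -1.59 ± 0.12 and -1.16 ± 0.13 (edgeR adjusted p = 4.71e-07 and 2.76e-05), and had the widest diurnal range, 1.20, among the 3 of 5 that passed (edgeR adjusted p = 0.00086). Against growth light 700, 1 of the 5 was lower at step day 0.6 and 0 were higher, whereas TL29 itself was higher there.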

How the data were processed

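Raw read counts were deposited by the authors for each transcript and each lane. The submitters' processing notes name Bowtie2 and the build TAIR10. The counting tool and the use of strand are not given in the sources used here. Each of 3 tables holds 41671 transcripts, and 12 columns stand in more than one table with identical values. A pair of same-named columns of step day 2.57 were joined to the second lane with the lower variance ratio, 1.91 against 7.44 to 7.47. Of the counts from 1 to 10, 70.4% were even, so mates of a read pair may have been counted separately. The 8 transcripts of APX1 held 11.6% to 15.7% of its counts each, so single transcripts were not compared.

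Lanes and transcripts were summed. Tests were quasi-likelihood F tests in edgeR 4.0.16 (R 4.3.3) with TMM scaling and filterByExpr, and p-values were Benjamini-Hochberg adjusted over all tested loci with a threshold of 0.05. The growth light set, the diurnal set and the step table with growth light 100 and 700 were fitted separately, and the pair of step groups alone. Ratio tests used log2(count + 0.5). Errors are SE for changes and each replicate's value for levels. DESeq2 1.42.0, other scalings, filters, lanes, halved counts, a replicate block and the omission of each replicate were alternatives. The procedure was checked on simulated counts. Promoters, lengths and similarity (BLAST 2.17.0) came from RefSeq on TAIR10.1, while the counts carry no coordinates.

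The members, gene lists and tests were chosen with earlier results of these data known. All 8 members are named. Of each list, the largest rise and fall past the threshold are named for growth light 700 against 100 and step day 0.6 against growth light 100, and the widest range for the diurnal test. Patterns most alike are the 2 loci of highest r over the 12 group means.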

Additional observations from a re-analysis of the deposited data

How the results depend on the processing

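With 24 libraries in pairs, each test rests on the spread between 2 pools per group, and intervals for APX2 cover counting error only. No pair of same-numbered libraries correlated above 0.1 in its deviations from the group means, and the lowest r was -0.38, in the diurnal set. With the replicate number as a block, no member's log2 change among the 99 results refitted changed its direction or its side of the threshold. The rest of these results were counts of members or of loci. The loci called between the step groups numbered 2190 with the replicate block against 1586.

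Of the members' log2 changes under all alternatives, 1200 kept direction and call, 45 newly passed, 18 were lost and 18 turned sign, none of the last in a called member. The cause was not tested. Under total-count scaling the turned values were, at growth light 700 against 100, 0.12 for APX6 and 0.03 for SAPX, at 450 against 100 0.18 for APX6, at 250 against 100 0.00 for APX5, and for the slope 0.05 for APX6 and 0.00 for SAPX. They were also -0.01 for APX5 at step day 2.57 against growth light 100 and -0.17 for APX6 at step day 0.6 against growth light 700. With step day 2.57 taken from its second lane alone, a setting chosen after seeing the data, APX5 was at -0.20 against growth light 100. Leaving out single replicates moved APX5 between -0.54 and 0.26 at growth light 250 against 100, APX6 between -0.15 and 0.09 at step day 0.6 against growth light 100 and between -0.06 and 0.16 against growth light 700, and APX5 between -0.27 and 0.31 at step day 2.57 against growth light 100. Between step days 2.57 and 0.6 the ranges were -0.01 to 0.21 for SAPX, -0.24 to 0.07 for APX3 and -0.47 to 0.09 for APX5.

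Between the step groups, 2523 loci passed with no filter beyond 1 read and 3137 with the spread shared by 4 groups. Members called there numbered 1 with total-count scaling, DESeq2 or no filter and 2 with the shared spread. At growth light 250 against 100, 5 members were called when only those groups were fitted, a fit whose count of all loci is not given here. At diurnal day 0.625 against 0.083, members called numbered 2 with DESeq2, with at least 10 counts in every replicate or with halved counts. They numbered 7 when only those groups were fitted, where 11301 loci passed. Without day 0.916, an omission chosen after seeing the data, they numbered 5, where 9935 loci passed. With all libraries 8781 loci passed, so these rises in members called are not particular to the family. The slope of the APX3 to APX1 ratio was -0.04 per 100 units of light.

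Leaving out 1 replicate at a time gave 3433 to 7003 loci and 2 to 5 members at growth light 250 against 100, 4520 to 7754 loci and 2 to 4 members for the slope, 3 to 5 members across the diurnal series, 1 to 5 members at day 0.625 against 0.083, and 844 to 4006 loci and 0 to 1 members between the step groups. The same omissions moved the slope of APX3 to APX1 between -0.14 and -0.08, that of SAPX to APX1 between -0.35 and -0.24, and the diurnal spreads of APX3 to APX1 between 0.72 and 0.91, of SAPX to APX1 between 0.33 and 0.56 and of TAPX to SAPX between 0.74 and 0.93. In the 4 comparisons of step with growth light groups, each count of called members stayed within 1 of its value: 5 in every case at day 0.6 against light 100, 5 to 6 at day 2.57 against light 100, 5 to 6 at day 0.6 against light 700, and 5 to 7 at day 2.57 against light 700.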

Other observations

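The partner genes were also set against plants grown at light 700, where 53.4% of all loci passed at step day 0.6 (26.8% higher and 26.6% lower) and 46.3% at step day 2.57 (24.1% higher and 22.2% lower). Of the 10 ascorbate-glutathione cycle reductases, 8 were higher and 0 lower at step day 0.6, with a median log2 change of 0.57, and 7 were higher and 0 lower at step day 2.57, with a median of 0.62. Of the 14 other scavengers, 9 were higher and 3 lower at step day 0.6 (median 0.75), and 9 were higher and 2 lower at step day 2.57 (median 1.20). Of the 5 extrinsic photosystem II proteins of the lumen, 2 were higher and 1 lower at step day 2.57 (median 0.21), while TL29 was higher in both comparisons. The median of all loci was -0.02 at step day 0.6 and 0.00 at step day 2.57. These values were obtained with TMM scaling, and the lists were chosen with earlier results of these data known.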
